A study of Arabidopsis thaliana with 2 samples.

Results

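The genes described here are 17 nuclear genes for membrane transporters on the ATH1 array, 14 of them sugar transporters of the SWEET family. They were found by gene symbol, as the nuclear genes whose symbol begins with a transporter family name followed by a digit and whose probe set is assigned to that gene alone, out of 13217 nuclear genes with such a probe set. The other 3 are NRT2.5, a nitrate transporter, and ZIP6 and ZIP9, of the ZIP family of metal transporters. In RefSeq, 136 nuclear genes carry a symbol of this form, a few of them lipid kinases and other proteins that merely share the letters, and the ammonium transporter AMT1;2 was left out of the search. For 8794 of the 22810 probe sets the annotation used here names no gene. No member was found under the names STP, SUC, NPF, PHT, SULTR, HAK, KUP, PIP, TIP, NIP or AMT, so the hexose and sucrose carriers of those families, the phosphate, sulfate, potassium and ammonium transporters and the aquaporins were not analysed here. The members are described as SWEET, NRT2 and ZIP genes, since sugar and nutrient transport is covered only in part and water transport not at all.

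RNA came from whole plants of the csb3 mutant and of wild-type Col-0, the background of the mutant. Both were grown for 5 weeks under 10 h of light and 14 h of darkness, and 5 plants were collected, although the labels leave unsaid whether this number holds for each genotype and whether their RNA was pooled. csb3 is 1 mutant line affected in HDS, an enzyme of the plastid isoprenoid pathway, and was isolated in a screen with a promoter reporter. Whether the csb3 plants still carried that reporter is not stated in the sources used here. Plants of csb3 are known to be dwarfed and disease resistant, with constitutive salicylic acid responses. The values hold 1 column per genotype, which was treated as 1 array. The methods speak of triplicate samples, and the labels do not say whether a column is 1 array or a mean of several. Either way no spread between replicates was at hand, and p-values could not be computed. The comparison asks which of these genes differ in transcript level between csb3 and Col-0.

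Plants move sugar, nitrate and metal ions across membranes with families of integral membrane proteins. SWEET proteins are uniporters that let sugars pass down their concentration gradient. They fall into clades I to IV, with mostly hexose transport in clades I and II, sucrose transport in clade III and vacuolar transport in clade IV. In leaves, SWEETs of clade III release sucrose for loading into the phloem, and several SWEET genes in plants are switched on by pathogens. NRT2 proteins take up nitrate with high affinity, and ZIP proteins carry zinc and other divalent metals into the cytoplasm.

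The values are MAS5 signals on a linear scale, which the authors had brought to the same trimmed mean of 250 on each array. For each ratio of csb3 to Col-0, a signal under the floor of 50 was raised to it. Where this applied to 1 of the arrays the fold is given as at least that size, and where it applied to both no fold was calculated. A gene was counted as up or down in csb3 at a ratio of 2-fold or more. A single log2 ratio had an SD of 0.65, estimated from 46 genes read by more than 1 probe set. It measures spread within this pair of arrays and not between plants. Because it rests on how far several probe sets for 1 gene disagreed, it need not be measurement error alone. Of the 6560 nuclear genes with 50 or more on both arrays, 4831 had a ratio inside this SD. Lying inside or beyond it is therefore a rough scale and not a test. Since a probe set's signal also depends on its own probes, signals are compared between genotypes for 1 gene and not between genes.

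None of the 17 genes was up and none was down in csb3 at 2-fold. Among all 13217 nuclear genes 479 were up, or 3.62%, and 301 were down, or 2.28%, shares at which 17 genes would contain few calls or none, so the absence of calls is not particular to these genes. A signal of 50 or more on both arrays was reached by 7 members, namely SWEET1, SWEET2, SWEET11, SWEET13, SWEET16, SWEET17 and ZIP6. Of these 7, 5 had a lower and 2 a higher signal in csb3, with log2 ratios between -0.72 and 0.47, whereas all 7 were higher in csb3 once each array was scaled on its spike-in controls. Of the 6560 nuclear genes measured in this way, 2874 had a lower and 3683 a higher signal in csb3 as deposited. One member, SWEET8, reached 50 only in csb3, NRT2.5 and SWEET9 reached it only in Col-0, and 7 members were below 50 on both arrays. The median log2 ratio over all 17 was 0, which reflects the members set to the floor, and it was 0 over all nuclear genes too. Over the 7 measured on both arrays the median was -0.16, against 0.08 over the 6560 nuclear genes so measured. Among those 6560 genes, 5.61% were up and 4.1% were down at 2-fold. In RNA of whole plants, fewer cells of a type and less RNA per cell cannot be told apart.

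**Figure D1:**
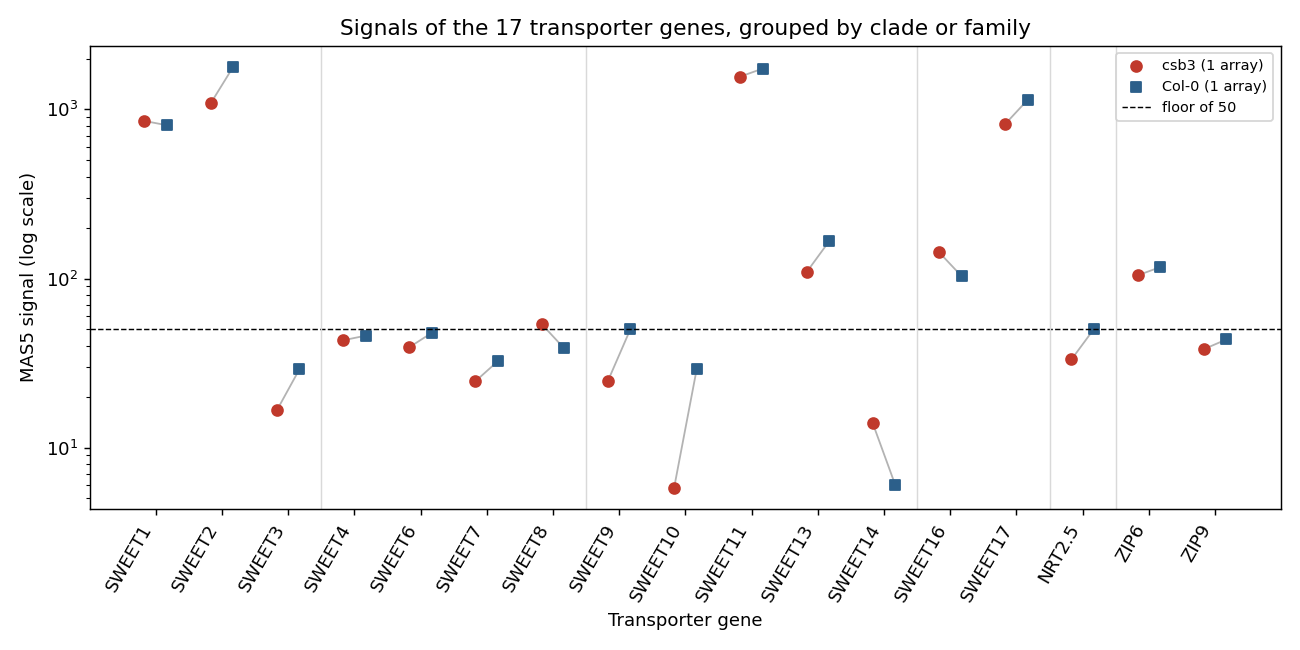
MAS5 signal on a log axis of each of the 17 transporter genes, in csb3 (circles, left of each pair) and in Col-0 (squares, right), 1 array each and without error bars since there are no replicates. Vertical lines separate the SWEET clades I to IV, NRT2.5 and the ZIP genes, and the dashed line is the floor of 50. The 7 genes with both symbols above the line are SWEET1, SWEET2, SWEET11, SWEET13, SWEET16, SWEET17 and ZIP6, and none of them is 2-fold apart.

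In clade I, SWEET2 had the lowest ratio among the members measured on both arrays with the signals as deposited. With quantile and lowess scaling SWEET13 of clade III was lower, at -0.80 and -0.78. SWEET2, which sits in the vacuolar membrane and is known for retaining sugar in root cells, had a signal of 1084 in csb3 and of 1783 in Col-0. The csb3 signal was 1.64-fold lower, a log2 ratio of -0.72, which slightly exceeds the SD of a single ratio and falls short of 2-fold. The ratio was -0.62 with quantile and -0.60 with lowess scaling, both inside the SD, and 0.26 with spike-in scaling. Among nuclear genes measured on both arrays, 9.38% had a log2 ratio at or below that of SWEET2. SWEET1, a glucose transporter of the plasma membrane, had 855 in csb3 and 806 in Col-0. Its log2 ratio of 0.09 was close to 0 and turned negative when the arrays were scaled on their medians or on reference genes. SWEET3 had 16.6 in csb3 and 29.0 in Col-0, both below the floor. So within clade I, 1 gene was lower in csb3 by more than the SD with the signals as deposited, 1 had a ratio near 0 and 1 was not measurable.

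Clade II was near or below the floor throughout. SWEET4, a hexose transporter, had 43.1 in csb3 and 45.9 in Col-0. SWEET6 had 39.2 in csb3 and 47.7 in Col-0, and SWEET7 had 24.7 in csb3 and 32.5 in Col-0. These pairs are too dim for a fold. SWEET8, which is needed for the formation of the pollen wall and is also known as RPG1, had 53.7 in csb3 and 38.6 in Col-0, which puts csb3 at least 1.07-fold higher. The pollen and anther regulators AGL66, AGL104 and AMS, the 3 of 15 flower and pollen markers with a named probe set, were below 50 on both arrays.

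Clade III holds the sucrose exporters. SWEET11, which acts with SWEET12 to release sucrose from phloem parenchyma, had 1565 in csb3 and 1745 in Col-0. This is a log2 ratio of -0.16, well inside the SD of a single ratio, and it was 0.02 after quantile normalization and 0.01 after lowess scaling. SWEET12 has no probe set under its name here, so the partner of SWEET11 was not analysed. SWEET13, which acts in anthers together with SWEET14, had 109 in csb3 and 166 in Col-0. This is a 1.52-fold lower signal in csb3, a log2 ratio of -0.61. It lay between -0.83 and -0.77 with the median, quantile, reference gene and lowess scalings, beyond the SD, and was 0.37 with spike-in scaling. The median and reference gene scalings lower every such ratio by the same amount. They moved the median of nuclear genes measured on both arrays from 0.08 to -0.08 and -0.14. Of the nuclear genes measured on both arrays, 12.9% had a ratio at or below that of SWEET13 as deposited. Its neighbour on the chromosome is SWEET10, with no other protein-coding gene between them in RefSeq. SWEET10, known from the switch to flowering, had 5.8 in csb3 and 29.0 in Col-0, so only 1 gene of this pair was measurable. SWEET14 had 13.9 in csb3 and 6.0 in Col-0.

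SWEET9, the sucrose exporter of nectaries, had 24.8 in csb3 and 50.2 in Col-0. With the floor of 50 it was at least 1.004-fold lower in csb3, and with a floor of 20 its log2 ratio was -1.02, past 2-fold. The outcome for this gene thus rests on how dim signals are treated.

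The members of clade IV, both of them carriers of the vacuolar membrane, pointed in opposite directions. SWEET17, a fructose transporter, had 819.9 in csb3 and 1141 in Col-0, a log2 ratio of -0.48. SWEET16, which carries several sugars, had 143 in csb3 and 103 in Col-0, a log2 ratio of 0.47 and the highest among the members measured on both arrays. Each difference is smaller than the SD of a single ratio, and 23.6% of nuclear genes measured on both arrays had a ratio at or above that of SWEET16. SWEET16 was higher in csb3 under every scaling tried, with log2 ratios from 0.24 to 1.45. SWEET17 was lower except with spike-in scaling, where its log2 ratio was 0.50.

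Of the members outside the SWEET family, ZIP6 alone had 50 or more on both arrays. NRT2.5, a high-affinity nitrate transporter known from nitrogen-starved plants, had 33.2 in csb3 and 50.3 in Col-0, so it was at least 1.01-fold lower in csb3. ZIP6 had 104 in csb3 and 117 in Col-0, a log2 ratio of -0.16 (0.82 with spike-in scaling). ZIP9, which is known to respond to zinc deficiency, had 38.2 in csb3 and 43.6 in Col-0. A signal below the floor does not show that a transcript is absent. At this signal over background a fall or a small difference in NRT2.5 or ZIP9 was not detectable.

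**Figure D2:**
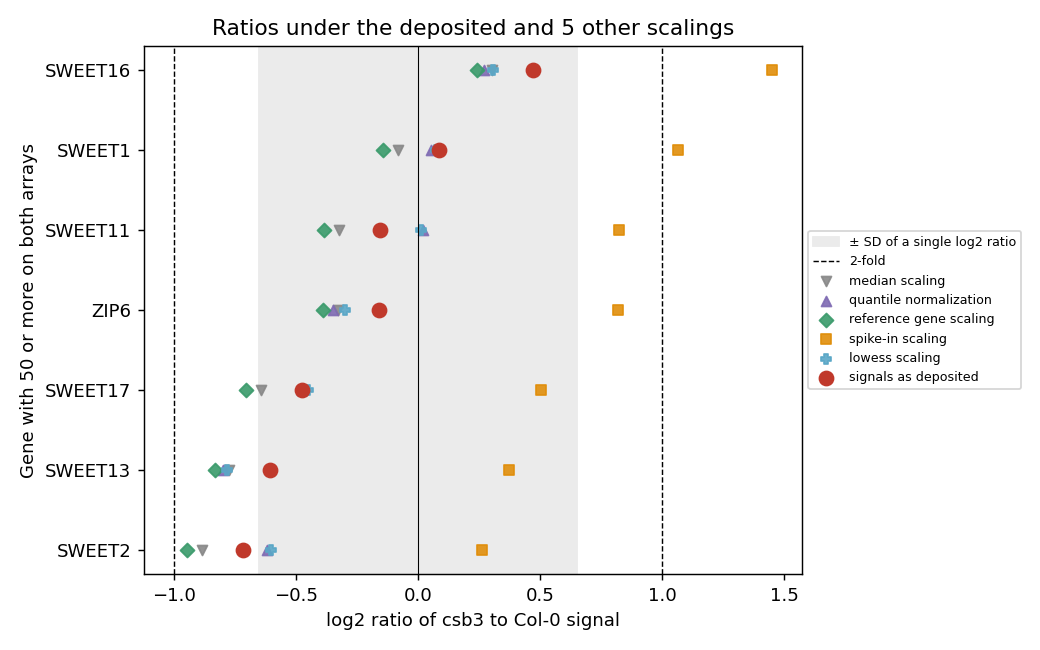
Log2 ratio of csb3 to Col-0 signal for the 7 transporter genes with 50 or more on both arrays, with the signals as deposited (red circles) and with 5 other scalings of the arrays (other symbols). The grey band is the SD of a single log2 ratio, 0.65 on either side of 0, and the dashed lines mark 2-fold. All red circles lie within 2-fold and only SWEET2 lies outside the band, which holds 4831 of the 6560 nuclear genes so measured. With spike-in scaling all 7 genes lie right of 0, as nearly all nuclear genes so measured do, and SWEET1 and SWEET16 pass 2-fold.

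At the lower limit of 1.5-fold, SWEET2 and SWEET13 were down and none of the 17 was up. SWEET13 passed it narrowly, at 1.52-fold and inside the SD, and fell short with 32 added, at a log2 ratio of -0.49. SWEET17, at 1.39-fold as deposited, passed it with median and reference gene scaling, at -0.64 and -0.70. Both of these scalings lower every ratio measured on both arrays by the same amount. Among all nuclear genes, 7.73% were down and 10.3% up. For genes with 50 or more on both arrays these shares were 13.6% down and 17.5% up. With 17 genes, 2 that pass this limit are near the background, so nothing is read from their number. The middle 50% of nuclear genes measured on both arrays had log2 ratios between -0.29 and 0.45. SWEET1, SWEET11 and ZIP6 lay inside that range, SWEET16 just above it and SWEET2, SWEET13 and SWEET17 below it.

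**Figure D3:**
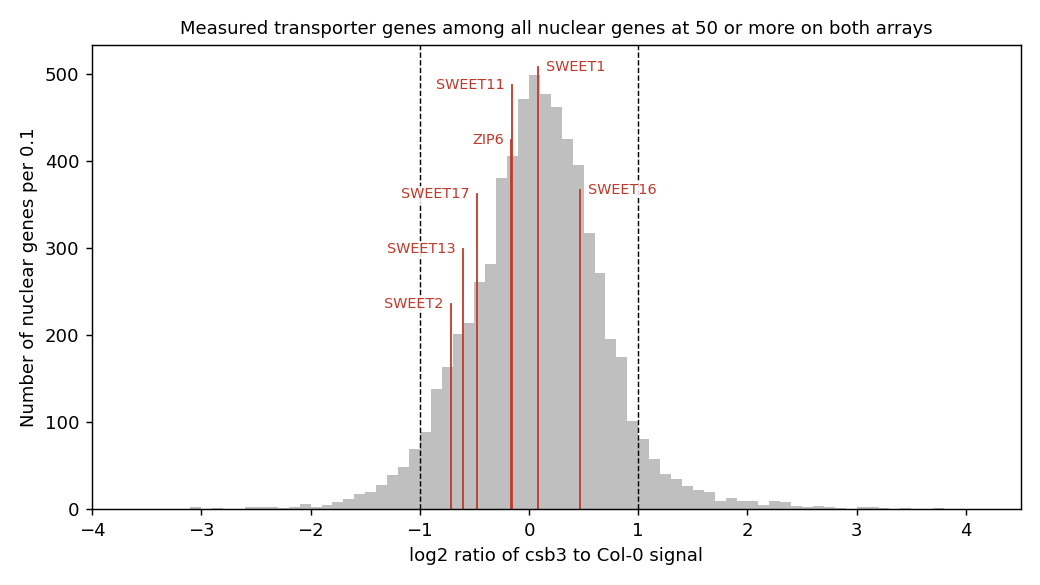
Histogram of log2 ratios of csb3 to Col-0 signal over the 6560 nuclear genes with 50 or more on both arrays, in steps of 0.1 (grey), with the 7 transporter genes so measured marked by red lines whose heights carry no meaning. The dashed lines mark 2-fold. The transporter genes lie between -0.72 and 0.47, within the bulk of the histogram, whose median is 0.08.

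A further 13 genes belong to the same families by a synonym but not by their symbol, and were found by a search made after the signals had been seen. They are SWEET5, SWEET15 and 11 genes of the NPF family, which carries nitrate, peptides, glucosinolates and hormones. With the floor of 50, none of the 13 was up or down at 2-fold, where 3.62% of nuclear genes were up and 2.28% down. At such shares 13 genes would contain few calls or none. SWEET15, also known as the senescence-associated gene SAG29, had 73.7 in csb3 and 21.6 in Col-0, a signal at least 1.47-fold higher in csb3. This bound is set by the floor of 50, and without a floor its signals are more than 2-fold apart. As for SWEET9, the outcome for SWEET15 thus rests on how dim signals are treated. SWEET5, expressed in the vegetative cell of pollen, had 10.5 in csb3 and 9.1 in Col-0. With these, 16 SWEET genes were examined, of which 6 had 50 or more on both arrays.

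Among the NPF genes, 6 had 50 or more on both arrays. As deposited, 3 of them were higher and 3 lower in csb3. With spike-in scaling all 6 were higher, as nearly all nuclear genes so measured were. NPF6.4, a relative of the nitrate sensor NRT1.1, had 2943 in csb3 and 5196 in Col-0, a 1.77-fold lower signal with a log2 ratio of -0.82. Scaled on the reference genes, which are few, its log2 ratio was -1.05, past 2-fold, and with spike-in scaling it was 0.16. NPF6.2, which helps to store nitrate in leaf stalks, had 1540.4 in csb3 and 1855 in Col-0. The glucosinolate transporters NPF2.10 and NPF2.11, which act together in loading seeds with glucosinolates, differed in their ratios. NPF2.11 had 487 in csb3 and 287 in Col-0, a 1.70-fold higher signal that stayed higher under every scaling, with log2 ratios from 0.54 to 1.74. NPF2.10 had 602 in csb3 and 596 in Col-0, a log2 ratio of 0.02 that turned negative under every other scaling except the spike-in one. NPF3.1 had 554 in csb3 and 414.5 in Col-0, and NPF4.3 had 76.8 in csb3 and 83.9 in Col-0. The remaining 5, NPF4.1, NPF4.2, NPF4.4, NPF4.5 and NPF5.13, were below 50 on both arrays. Without a floor, NPF4.2, NPF4.5 and NPF5.13 would be lower in csb3 by more than 2-fold, but their signals are too dim for a fold.

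Genes that work alongside these transporters were taken from 9 lists with 247 entries, of which 15 genes have a named probe set. None of the 15 was up or down at 2-fold, where 3.62% of nuclear genes were up and 2.28% down. Of the 13 with 50 or more on both arrays, 10 were lower and 3 higher in csb3. Of all nuclear genes so measured, 2874 were lower and 3683 higher. With spike-in scaling all 13 were higher, as nearly all nuclear genes so measured were. Of the sugar carriers of the vacuole, TMT1 had 233.5 in csb3 and 436 in Col-0, a log2 ratio of -0.90, and TMT2 had 135 in csb3 and 205 in Col-0, a log2 ratio of -0.60. Both import sugar into the vacuole against its gradient, whereas SWEET16 and SWEET17 let it pass in either direction. TMT3 was below 50 on both arrays. The sugar porters SFP1 and SFP2, which are tandem genes, leaned apart, with 1244 in csb3 and 713 in Col-0 for SFP1 and 139.5 in csb3 and 211 in Col-0 for SFP2. TMT1 was past 2-fold, lower in csb3, with 4 of the 5 other scalings, and its log2 ratio was 0.08 with spike-in scaling.

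In sulfate assimilation, the ATP sulfurylase APS3 had 248 in csb3 and 488 in Col-0, a log2 ratio of -0.98 just short of 2-fold. It too was past 2-fold with 4 scalings, between -1.12 and -1.20, and was 0.01 with spike-in scaling. Its relative APS4 had 764 in csb3 and 556 in Col-0, and the sulfite reductase SIR had 1434 in csb3 and 1845 in Col-0. For metal supply, bZIP19, which activates ZIP genes under zinc deficiency, had 549 in csb3 and 654 in Col-0. POPEYE (PYE), a regulator of the iron response, had 222 in csb3 and 233 in Col-0, and BHLH101 was below 50 on both arrays. CHX20, a cation exchanger of guard cells, had 64.8 in csb3 and 108 in Col-0. The log2 ratios of the vacuolar proton pump subunits VHA-A1, VHA-A2 and VHA-A3, which energise transport into the vacuole or, for VHA-A1, acidify the Golgi network, lay between -0.31 and 0.04. That of VHA-A1, 0.04 as deposited, turned negative under every other scaling except the spike-in one.

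Scaling on the spike-in controls turned the direction of most of these ratios. All 18 hybridisation spike-in probe sets had a lower signal in csb3, and their median log2 ratio was -0.98. Several of these probe sets read the same spiked transcript on the same arrays, so they are not independent readings. Scaling on them moved the median of nuclear genes measured on both arrays to 1.06 and that of the 7 members to 0.82, since it adds the same amount to every such ratio and leaves the gap between both medians as it was. With the median, quantile, reference gene and lowess scalings the median of the 7 members lay between -0.39 and -0.30, and that of the nuclear genes between -0.14 and -0.01. SWEET2, SWEET13, SWEET17 and ZIP6 were lower in csb3 under all scalings except the spike-in one.

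The organ content of the samples bears on genes with root or leaf expression. Of 24 root markers listed, 5 have a probe set. PYK10 and NAI2, genes of ER bodies, passed 2-fold with the higher signal in csb3, where 3.62% of nuclear genes were up. PYK10 had 1219.8 in csb3 and 27.8 in Col-0, and NAI2 had 241 in csb3 and 26.5 in Col-0. All 5 were below 50 in Col-0. The root hair expansins EXPA7 and EXPA18 and the cell wall enzyme gene XTH20 were below 50 on both arrays. The rubisco activase RCA, the 1 green tissue marker with a probe set, had 7432 in csb3 and 12691 in Col-0. The 3′ to 5′ signal ratio of actin, a sign of RNA quality, was 4.91 in csb3 and 2.06 in Col-0, that of GAPDH was 1.40 in csb3 and 1.29 in Col-0 and that of ubiquitin was 1.98 in csb3 and 2.66 in Col-0. The part of organ content or RNA quality in the transporter signals was not tested.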

How the data were processed

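The authors hybridised RNA of whole csb3 and Col-0 plants to ATH1 arrays and deposited 1 MAS5 intensity signal per probe set on a linear scale (version not given in the sources used here). The mean without the lowest and highest 2% is 250 on both arrays. The methods describe SAM on triplicates. The values hold 1 column per genotype, treated as 1 array although the labels do not say whether it is a mean, so SAM was not run. Intensities below 50 were set to 50, and log2 ratios of csb3 to Col-0 were computed with Python 3.11.15, NumPy 2.4.6 and pandas 2.3.3. Lowess scaling used statsmodels 0.14.6 and the figures matplotlib 3.10.9. The code for counting and for the SD was checked on simulated data, which does not test how real probe sets behave.

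In the annotation, 13513 probe sets have a single gene and 503 have more, and 13367 were matched to nuclear RefSeq genes (TAIR10.1), whose names alone were used. A gene is represented by its probe set with the highest mean signal, and the members have 1 each. Members and lists were chosen with earlier results of these data known. All members are named. In the lists PS2, APK1 and PI matched other genes and were left out. The promoter search planned was not run, since no sequences were used here. Seed markers, and the lists of nitrate and ammonium handling, phosphate handling, other aquaporins and amino acid carriers, had no named probe set, and the phloem and guard cell list had FAMA alone (61.1 in csb3 and 64.7 in Col-0). The number of arrays limits the precision. The alternatives were 3 other treatments of dim signals, 32 added to both signals, 5 scalings, 2 choices of probe set and 2 other folds. Reference gene scaling rested on at most 2 genes, and its own error was not estimated.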

Additional observations from a re-analysis of the deposited data

How the results depend on the processing

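No paired analysis was possible because the comparison rests on a single pair of value columns. The count of members up in csb3, 0 as reported, was 1 without a floor (SWEET14) and 3 with spike-in scaling (SWEET1, SWEET8 and SWEET16). The count down, also 0, was 1 with a floor of 20 (SWEET9), 2 without a floor (SWEET9 and SWEET10) and 2 at 1.5-fold (SWEET2 and SWEET13). The median log2 ratio of the 17 members, 0 as reported, was -0.28 with a floor of 20 and without a floor, -0.16 with 32 added and 0.50 with spike-in scaling. The causes were not tested, except that lower floors admit dim signals and spike-in scaling raises nearly every ratio. Both counts stayed at 0 with 32 added and under the median, quantile, reference gene and lowess scalings. They were also 0 with a floor of 100 and at 3-fold, settings that cannot raise a count of 0. The 2 choices of probe set could not change them either, since each member has 1 probe set and both choices kept it. Over nuclear genes, 479 were up and 301 down as reported, 1515 and 2289 without a floor, 717 and 734 with a floor of 20, 299 and 557 with reference gene scaling and 4025 and 30 with spike-in scaling. Values under the 2 choices of probe set could not move, nor could those under the other floors for members measured on both arrays. The 110 values under the alternatives of the 10 members with 50 or more on at least 1 array include these. Of the 110, 10 moved by more than the SD of 0.65, 8 of them with spike-in scaling and 2 those of SWEET9. Among the 7 others, SWEET3 had a log2 ratio of -0.80, SWEET10 of -2.32 and SWEET14 of 1.21 without a floor, SWEET10 of -0.69 with 32 added and SWEET4 of 0.77 with spike-in scaling. Signal over background limits the 7 members below 50 on both arrays.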
